A study of Mus musculus with 4 samples.

Results

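The mevalonate pathway builds the isoprenoid units from which cells make cholesterol and the lipid anchors of many proteins. This account covers 9 of its enzyme genes, named as a list and not picked by their level: Hmgcs1, Mvk, Pmvk, Mvd, Idi1, Fdps, Ggps1, Fdft1 and Sqle. All 9 were found among the 24346 rows of the deposited tables, and all 9 passed the filter on low values. RNA came from aorta of C57BL/6 mice at 3 weeks of age, with 2 libraries labelled wild type (WT) and 2 labelled knockout (KO) for GGPPS, the geranylgeranyl diphosphate synthase that Ggps1 encodes. The label of each library names aorta of both sexes, without saying whether animals were pooled. The cells in which the gene was removed, any Cre line and the deleted exon are not given in the sources used here.

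As background, Hmgcs1 makes HMG-CoA, from which mevalonate is formed. Mvk and Pmvk phosphorylate mevalonate in turn, Mvd removes a carboxyl group to give isopentenyl diphosphate, and Idi1 converts that unit to its isomer. Fdps joins these units into farnesyl diphosphate. There the pathway divides: Ggps1 adds a further unit to make geranylgeranyl diphosphate, which is attached to Rab and other small GTPases, while Fdft1 joins farnesyl groups into squalene, which Sqle oxidises on the way to cholesterol. Many genes of the pathway are known to be driven by SREBP transcription factors when sterols run low. In the arterial wall, isoprenoid supply is known to bear on the cytoskeleton of smooth muscle through these GTPases.

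Ggps1 fell in the knockout, while most of the enzyme genes around it rose. Of the 9 genes, 6 were higher (Hmgcs1, Mvk, Mvd, Idi1, Fdps and Sqle), 1 was lower (Ggps1) and 2 did not pass the threshold (Pmvk and Fdft1). The test was limma on log2(FPKM + 1), where FPKM is a fragment count scaled for transcript length and library, with Benjamini-Hochberg adjustment over all 12314 genes tested and a threshold of 0.05. So much of the transcriptome differed that 35.2% of all tested genes were called higher and 30.6% lower (65.7% in either direction, against 7 of the 9 genes), and the counts above are to be read beside those shares. A log2 difference of at least 1 was reached by 4 of the 9 genes (Mvd, Idi1, Fdps and Sqle), a size reached upward by 10.9% of tested genes. The median log2 difference of the 8 genes other than Ggps1 was 0.88, against 0.03 over all tested genes. FPKM totals were larger in the knockout libraries (611767 and 632918) than in wild type (515927 and 520478). With the totals made equal, the 2 medians were 0.64 and -0.20, and 5 of the 9 genes were called higher and 1 lower, against 25.3% and 45.3% of all genes. The gene whose call ended was Mvk. Both knockout libraries lay above both wild-type libraries for 7 of the 9 genes and below for 1, against 43.6% and 39.6% of all tested genes.

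**Figure D1:**
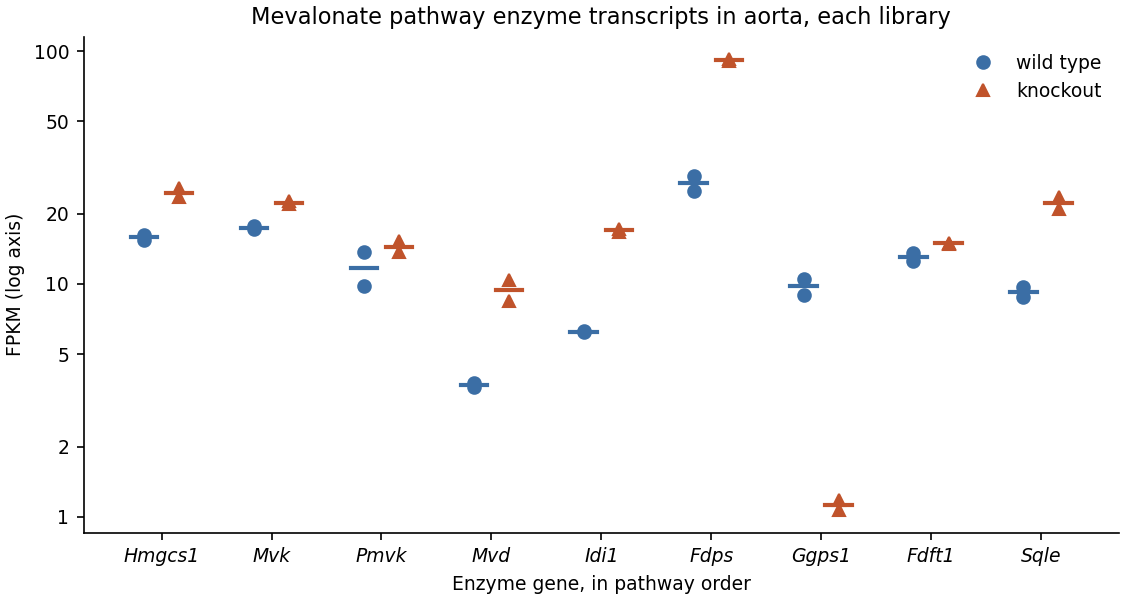
FPKM of each enzyme gene on a log axis, in pathway order, with wild-type libraries as blue circles, knockout libraries as orange triangles and group means as bars. Ggps1 is near 1 FPKM in both knockout libraries, Fdps is near 90 FPKM there, and the groups overlap for Pmvk.

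The starts of 6 of the 9 genes have an entry in the RefSeq promoter table for GRCm38.p6, the assembly known as mm10; Fdps, Fdft1 and Sqle do not. The 250 bases before each start were searched on both strands for 3 short motifs. TCACNCCAC is a form of the sterol regulatory element that SREBP binds, CCAAT is the core of the NF-Y site, and GGGCGG is the Sp1 box. Windows of 5 genes follow, 5′ to 3′ on the gene's own strand, so that the called genes Hmgcs1, Mvk and Mvd can be set beside Pmvk, which was not called, and beside the deleted gene. Capitals mark a match on either strand (CCAAT reads attgg on the other one), and stretches that lie in an annotated exon were left out.
Hmgcs1, chr13:119690101-119690350, plus strand: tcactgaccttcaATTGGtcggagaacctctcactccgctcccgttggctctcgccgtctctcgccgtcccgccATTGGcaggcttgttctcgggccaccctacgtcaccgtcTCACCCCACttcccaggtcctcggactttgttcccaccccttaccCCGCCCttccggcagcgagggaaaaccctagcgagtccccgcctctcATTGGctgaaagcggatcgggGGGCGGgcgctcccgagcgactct
Mvk, chr5:114444061-114444268, plus strand: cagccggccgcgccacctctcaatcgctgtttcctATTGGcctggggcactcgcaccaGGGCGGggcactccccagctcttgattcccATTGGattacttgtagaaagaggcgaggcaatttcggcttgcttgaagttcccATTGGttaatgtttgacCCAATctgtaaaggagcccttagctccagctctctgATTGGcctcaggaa
Pmvk, chr3:89454291-89454540, plus strand: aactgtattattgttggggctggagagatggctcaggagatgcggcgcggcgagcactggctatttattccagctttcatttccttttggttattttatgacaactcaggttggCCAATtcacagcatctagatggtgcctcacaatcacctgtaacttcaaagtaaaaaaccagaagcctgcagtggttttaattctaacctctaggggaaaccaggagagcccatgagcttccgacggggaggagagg
Mvd, chr8:122443423-122443672, minus strand: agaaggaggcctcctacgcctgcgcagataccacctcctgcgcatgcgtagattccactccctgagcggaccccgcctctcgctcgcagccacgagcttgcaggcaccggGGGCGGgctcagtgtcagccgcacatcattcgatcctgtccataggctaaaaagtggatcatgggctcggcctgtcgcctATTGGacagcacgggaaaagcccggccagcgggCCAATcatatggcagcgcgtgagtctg
Ggps1, chr13:14063490-14063603, minus strand: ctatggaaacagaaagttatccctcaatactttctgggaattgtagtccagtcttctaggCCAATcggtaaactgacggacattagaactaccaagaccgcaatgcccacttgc

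The sterol element was matched in Hmgcs1 alone of the 6 genes, from 137 to 129 bases before its start, and in 1.05% of all 32851 promoter windows. CCAAT was matched in 6 of 6 genes, against 33.8% of all windows. Mvk held 5 copies of it in its full window, and Hmgcs1 and the deleted gene Ggps1 held 3 each. Not all of the Ggps1 copies lie in the stretch printed above. The Sp1 box was matched in 4 of 6 genes (Hmgcs1, Mvk, Mvd and Idi1), against 32.7% of all windows. The Idi1 window was not printed because it lies wholly in annotated exons of Idi1 and Gm48574. Its matches in these counts are therefore in annotated exon sequence. Pmvk has a second start in the table, at which none of the 3 motifs was matched. The counts above take a gene as matched if any of its windows was, while the shares are of single windows, so the units differ. These are matches of letters within this window and do not show binding.

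Ggps1 itself was at 8.96 and 10.6 FPKM across wild-type libraries against 1.18 and 1.07 FPKM in the knockouts. The groups did not overlap, and the knockout mean was 8.69-fold lower. The log2 difference was -2.34 (SE 0.13, limma adjusted p = 3.5e-09), and only 0.4% of all tested genes had a lower one. Ggps1 spans 14050659 to 14063488 on chromosome 13 of mm10, on the minus strand, with 4 exons in a longest transcript of 4244 bases. FPKM takes the gene as a whole, so reads from exons outside the deletion and reads from cells that kept the gene cannot be told apart in the remaining 1.12 ± 0.08 FPKM (mean ± SD, n = 2). Because the difference depends on the number added before the logarithm, it was -3.01 with 0.1 and -1.27 with 5 in place of 1.

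Hmgcs1, the entry enzyme, rose from 16.3 and 15.5 FPKM in wild type to 23.6 and 25.8 FPKM in knockout. Both knockout libraries lay above both wild-type libraries, and the mean was 1.56-fold higher (log2 difference 0.61, SE 0.11, limma adjusted p = 0.000289). With equal totals its log2 difference was 0.35 (limma adjusted p = 0.00743).

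The kinases that follow had small log2 differences. Mvk stood at 17.8 and 17.1 FPKM across wild-type libraries against 22.6 and 22.0 FPKM in the knockouts, 1.28-fold higher without overlap (log2 difference 0.34, SE 0.11, limma adjusted p = 0.0145). This call ended with equal totals, where the log2 difference was 0.09 (limma adjusted p = 0.463), and also without either wild-type library (limma adjusted p = 0.0963 and 0.158) and after removal of trends on transcript length and GC content (0.21, limma adjusted p = 0.102). Mmab, an enzyme gene of cobalamin metabolism, starts 209 bases from Mvk on the other strand, and its levels were 5.34 and 4.91 FPKM in wild type against 4.93 and 4.28 FPKM in knockout (log2 difference -0.13, limma adjusted p = 0.381; with equal totals -0.35, limma adjusted p = 0.0214). Pmvk was at 13.7 and 9.78 FPKM across wild-type libraries against 13.7 and 15.3 FPKM in the knockouts. The groups overlapped through wild-type library 1, and the difference did not pass (log2 0.30, SE 0.15, 95% interval -0.02 to 0.61, limma adjusted p = 0.0874). The Pmvk difference was 0.52 when that library was left out (limma adjusted p = 0.0178) and 0.07 when wild-type library 2 was (limma adjusted p = 0.779), so 1 library decides it.

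Mvd had the lowest wild-type level of the 9 genes, 3.60 and 3.76 FPKM, and reached 10.4 and 8.45 FPKM in knockout. Its mean rose 2.56-fold with no overlap (log2 difference 1.15, SE 0.13, limma adjusted p = 3.92e-06). Idi1 was at 6.20 and 6.30 FPKM across wild-type libraries against 17.2 and 16.8 FPKM in the knockouts, a 2.72-fold rise (log2 difference 1.31, SE 0.12, limma adjusted p = 3.21e-07). The libraries of each genotype lay close together for Idi1, with SDs of 0.07 and 0.27 FPKM. Its paralogue Idi2 was listed at 0 in the 4 libraries. With equal totals Mvd and Idi1 remained called, at log2 differences of 0.92 and 1.07 (limma adjusted p = 4.22e-05 and 2.71e-06).

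Fdps, which makes the substrate of GGPPS, had the highest level of the 9 genes in both genotypes. It was at 29.0 and 25.0 FPKM across wild-type libraries against 90.9 and 92.3 FPKM in the knockouts. This 3.39-fold rise was the largest of the group (log2 difference 1.73, SE 0.11, limma adjusted p = 1.11e-08) and was above 96.2% of all tested genes. Over the 14 alternative settings tried, its log2 difference lay between 1.44 and 1.83. Fdps took 24.8% and 22.5% of the summed FPKM of the 9 genes in wild type and 42.2% and 41.9% in knockout. A same-strand gene model, Gm43738, shares 26.7% of the annotated exon bases of Fdps, and how reads there were assigned was not given in the sources used here.

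Of the enzymes on the squalene branch, Sqle was called and Fdft1 was not; the difference between them was not tested. Fdft1, squalene synthase, was at 12.6 and 13.6 FPKM across wild-type libraries against 14.9 and 15.0 FPKM in the knockouts. The libraries did not overlap, yet the difference did not pass (log2 0.18, SE 0.11, 95% interval -0.07 to 0.42, limma adjusted p = 0.18). With equal totals it turned to -0.07 (limma adjusted p = 0.578), and after removal of length and GC trends it was 0.26 and passed (limma adjusted p = 0.0478). Of the annotated exon bases of Fdft1, 18.3% also lie in exons of Ctsb on the other strand. Ctsb, the lysosomal protease cathepsin B, was at 155 and 156 FPKM across wild-type libraries against 182 and 192 FPKM in the knockouts, about an order of magnitude above Fdft1, and its part in the Fdft1 values was not tested. Sqle, the next enzyme, rose from 8.77 and 9.73 FPKM to 21.1 and 23.6 FPKM, 2.42-fold without overlap (log2 difference 1.19, SE 0.12, limma adjusted p = 1.1e-06). Its log2 difference with equal totals was 0.94 (limma adjusted p = 8.78e-06).

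**Figure D2:**
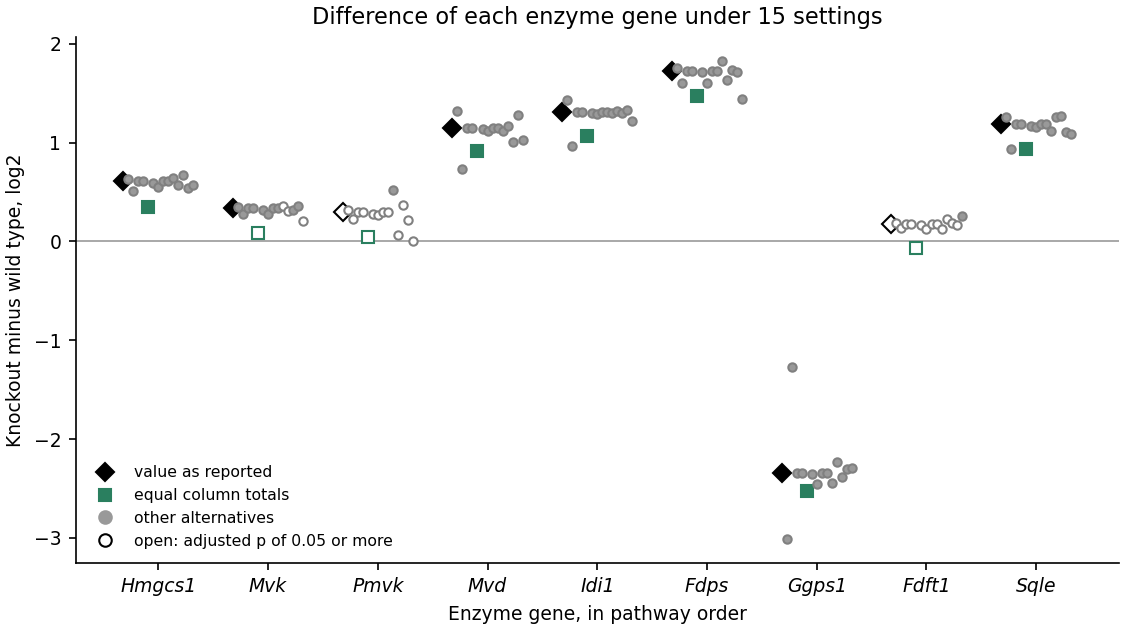
Log2 difference of each enzyme gene, knockout minus wild type, under the reported setting (black diamond), with equal column totals (green square) and under the other 13 alternatives (grey circles), open where the adjusted p was 0.05 or more. Hmgcs1, Mvd, Idi1, Fdps, Ggps1 and Sqle are filled throughout, Mvk is open in 4 alternatives, and Pmvk and Fdft1 are filled in 1 each.

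FPKM is scaled for length, so the levels of the genes can be ordered. In wild type the means ran from Fdps (27.0 ± 2.83 FPKM, SD, n = 2) through Mvk (17.5 ± 0.46), Hmgcs1 (15.9 ± 0.54), Fdft1 (13.1 ± 0.74), Pmvk (11.7 ± 2.78), Ggps1 (9.75 ± 1.13), Sqle (9.25 ± 0.68) and Idi1 (6.25 ± 0.07) to Mvd (3.68 ± 0.12). The neighbours Fdft1 and Pmvk, Pmvk and Ggps1, and Ggps1 and Sqle overlapped in their libraries, and the others did not. In knockout the order was Fdps (91.6 ± 1.01), Hmgcs1 (24.7 ± 1.55), Sqle (22.4 ± 1.80), Mvk (22.3 ± 0.43), Idi1 (17.0 ± 0.27), Fdft1 (14.9 ± 0.10), Pmvk (14.5 ± 1.13), Mvd (9.41 ± 1.36) and Ggps1 (1.12 ± 0.08). There Hmgcs1 and Sqle, Sqle and Mvk, and Fdft1 and Pmvk overlapped in their libraries, and the other neighbours did not. Ggps1 thus moved to the last place. Summed over the 9 genes, the level was 117 and 111 FPKM across wild-type libraries against 216 and 220 FPKM in the knockouts, or 0.0227% and 0.0214% of all FPKM against 0.0352% and 0.0348%.

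Ratios between these genes within a library do not depend on a factor applied to the whole library. They can change with settings that act on genes unequally. Removal of length and GC trends, for instance, took the log2 difference of Fdps from 1.73 to 1.44 and that of Fdft1 from 0.18 to 0.26. The level of Ggps1 relative to Fdps was 0.309 and 0.422 in wild type and 0.0130 and 0.0115 in knockout, 29.8-fold lower by the means. Fdft1 relative to Fdps was 0.433 and 0.544 in wild type and 0.164 and 0.163 in knockout. Fdft1 itself did not fall (means of 13.1 and 14.9 FPKM in wild type and knockout), so this lower ratio restates the rise of Fdps. That rise was above 96.2% of all tested genes, so most genes set beside Fdps would have a lower ratio in knockout. Sqle relative to Fdft1 went from 0.698 and 0.715 to 1.42 and 1.57. Idi1 relative to Mvk went from 0.348 and 0.367 to 0.759 and 0.763. The smallest shift of the 5 ratios was that of Hmgcs1 to Mvk, from 0.914 and 0.904 to 1.04 and 1.17. No ratio overlapped between genotypes, but lack of overlap was common in these data. For single genes, both knockout libraries lay above both wild-type libraries in 43.6% of all tested genes and below in 39.6%. The share over all pairs of genes was not computed. With 2 libraries against 2, no exact two-sided permutation p under 0.333 is possible, and no test was run on the ratios.

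**Figure D3:**
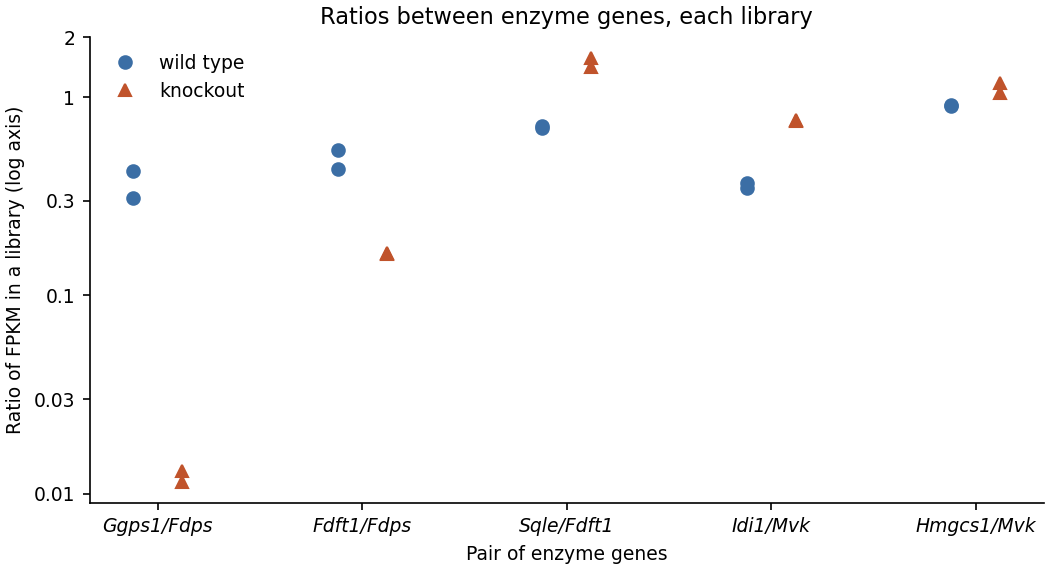
Ratio of the FPKM of 2 enzyme genes within each library, on a log axis, with wild type as blue circles and knockout as orange triangles. Ggps1/Fdps is near 0.01 in knockout and above 0.3 in wild type, and Fdft1/Fdps falls to 0.163 in a knockout library.

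The steps after Sqle, which turn its product into cholesterol, were called higher in 8 of 10 genes and lower in 1, beside 35.2% and 30.6% of all tested genes, with a median log2 difference of 0.52. Msmo1, the sterol methyl oxidase, rose from 11.5 and 12.3 FPKM to 36.1 and 41.9 FPKM, and Cyp51, which removes a methyl group from lanosterol, from 5.43 and 5.76 to 14.4 and 15.5 FPKM. Their log2 differences of 1.63 and 1.27 (limma adjusted p = 4.01e-08 and 5.76e-07) were in the range of Mvd, Idi1, Fdps and Sqle. Tm7sf2, a sterol reductase, was the exception and fell from 9.22 and 8.50 to 5.26 and 3.77 FPKM (limma adjusted p = 0.000135). Nsdhl was at 5.54 and 6.00 FPKM across wild-type libraries against 6.92 and 7.29 FPKM in the knockouts and did not pass (limma adjusted p = 0.0754). With equal totals, 6 of the 10 genes were called higher and 1 lower, beside 25.3% and 45.3% of all tested genes. The calls that ended there were those of Ebp (log2 difference 0.10, limma adjusted p = 0.412) and Hsd17b7 (0.30, limma adjusted p = 0.0704). Ebp kept its call in 9 of 14 alternatives and Hsd17b7 in 9 of the 13 in which it was tested.

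The supply of acetyl-CoA ahead of Hmgcs1 held 1 called gene of 5, where 65.7% of all tested genes were called in either direction. Slc25a1, the mitochondrial citrate carrier, rose from 27.9 and 25.7 FPKM to 47.0 and 46.1 FPKM (log2 difference 0.77, limma adjusted p = 1.98e-05). Acly, which splits citrate to acetyl-CoA, was at 24.4 and 24.7 FPKM across wild-type libraries against 27.0 and 29.1 FPKM in the knockouts. Acss2, an acetyl-CoA synthetase, had means of 8.10 and 9.22 FPKM in wild type and knockout. Acat2, the cytosolic thiolase, had means of 7.77 and 7.32 FPKM, and the mitochondrial thiolase Acat1 33.4 and 28.7 FPKM. With equal totals Acat1 and Acat2 were called lower, at log2 differences of -0.47 and -0.31 (limma adjusted p = 0.00119 and 0.0258). Acly passed after removal of length and GC trends (0.35, limma adjusted p = 0.00961).

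Of 7 regulators of the pathway, 2 were called higher and 1 lower, beside 35.2% and 30.6% of all tested genes. With equal totals 1 was called higher and 2 lower. Insig1, an SREBP target whose protein holds SREBP back in the endoplasmic reticulum, rose from 13.9 and 15.0 FPKM to 35.7 and 37.9 FPKM (log2 difference 1.29, SE 0.11, limma adjusted p = 2.26e-07). Srebf2, which encodes the SREBP of sterol synthesis, was at 35.0 and 33.7 FPKM across wild-type libraries against 34.0 and 32.2 FPKM in the knockouts, overlapping and not called (log2 difference -0.05, 95% interval -0.28 to 0.17, limma adjusted p = 0.677). Its direction depends on the setting: with equal totals Srebf2 was called lower at -0.31 (limma adjusted p = 0.0143), and after removal of length and GC trends higher at 0.29 (limma adjusted p = 0.0229). Srebf1, of the SREBP linked more to fatty acids, was called higher (means 21.7 and 27.0 FPKM in wild type and knockout, limma adjusted p = 0.0286). That call ended in 6 of 14 alternatives, among them equal totals (log2 difference 0.05, limma adjusted p = 0.681) and the removal of either wild-type library (0.39 and 0.22, limma adjusted p = 0.0662 and 0.321) or of knockout library 1 (0.25, limma adjusted p = 0.0918). Mbtps1, the protease that first cuts SREBP, fell from 63.0 and 67.3 to 41.3 and 52.4 FPKM (limma adjusted p = 0.0031). Scap, Insig2 and Mbtps2, with log2 differences of 0.12, 0.16 and 0.01, were not called. Scap passed after removal of length and GC trends (0.41, limma adjusted p = 0.00486) and Insig2 without knockout library 1 (0.36, limma adjusted p = 0.0152).

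A further list held genes for the handling of farnesyl, geranylgeranyl and longer isoprenoid chains, not all of them enzymes. Of these 13 genes, 6 were called higher and 0 lower, with a median of 0.18, beside 35.2% and 30.6% of all tested genes. With equal totals 3 were called higher and 3 lower, beside 25.3% and 45.3%. With no filter on low values 3 were called higher and 0 lower, beside 4609 and 3792 of all 17542 genes in that fit. Nus1, a subunit of the dolichol-forming enzyme, rose from 19.9 and 18.0 to 32.6 and 33.9 FPKM (log2 difference 0.78, limma adjusted p = 2.69e-05). Rabggtb, the catalytic subunit that attaches geranylgeranyl groups to Rab proteins, rose from a mean of 31.5 to 50.3 FPKM (log2 difference 0.66, limma adjusted p = 7.05e-05). Pdss1, which builds the side chain of coenzyme Q, rose by 0.66 from a low level of 0.932 and 1.67 FPKM (limma adjusted p = 0.00163). It needed the knockout (2.53 and 2.63 FPKM) to pass the filter on low values, so its place in the count leans on that group. Fntb, the farnesyltransferase subunit, was called at a log2 difference of 0.40 (limma adjusted p = 0.0158), a call that ended in 5 of 14 alternatives: with no filter (limma adjusted p = 0.0574), with equal totals (0.17, limma adjusted p = 0.245), on leaving out wild-type library 2 (0.26, limma adjusted p = 0.286) and on leaving out knockout library 1 or 2 (0.41 and 0.38, limma adjusted p = 0.0591 and 0.0697).

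Fatty acid synthesis, which shares acetyl-CoA and SREBP control with the pathway, moved in both directions: 6 of 10 genes were called higher and 3 lower, with a median of 0.45, and the share called lower was close to the 30.6% of all tested genes (35.2% were called higher). With equal totals 5 were called higher and 3 lower, with a median of 0.20, beside 25.3% and 45.3%. The call that ended there was that of Me1 (log2 difference 0.09, limma adjusted p = 0.433). The desaturase genes Scd1 and Scd2 rose by log2 differences of 1.03 and 1.05 (limma adjusted p = 2.19e-06 and 2.31e-06), and the elongase gene Elovl6 by 1.11 (limma adjusted p = 2.6e-06). Elovl6 was at 0.467 and 0.579 FPKM in wild type and passed the filter on low values only through the knockout (2.26 and 2.32 FPKM), so its place in the count leans on that group. Thrsp and Acacb, both known from fat-storing and oxidative tissue, fell by 0.97 and 0.75 (limma adjusted p = 1.21e-05 and 0.000188), the second a call that ended after removal of length and GC trends (limma adjusted p = 0.129). Thrsp in turn passed the filter only through wild type (2.27 and 2.19 FPKM, against 0.750 and 0.563 FPKM in knockout). Acacb also needed wild type to pass it (2.25 and 2.63 FPKM, against 1.20 and 0.894 FPKM in knockout). Fads2 was the other called fall (log2 difference -0.32, limma adjusted p = 0.0287), and it lost that call in 5 of 14 alternatives: without either wild-type library or knockout library 1 (limma adjusted p = 0.0548, 0.273 and 0.146), with no filter (0.0716) and after removal of length and GC trends (0.0698).

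**Figure D4:**
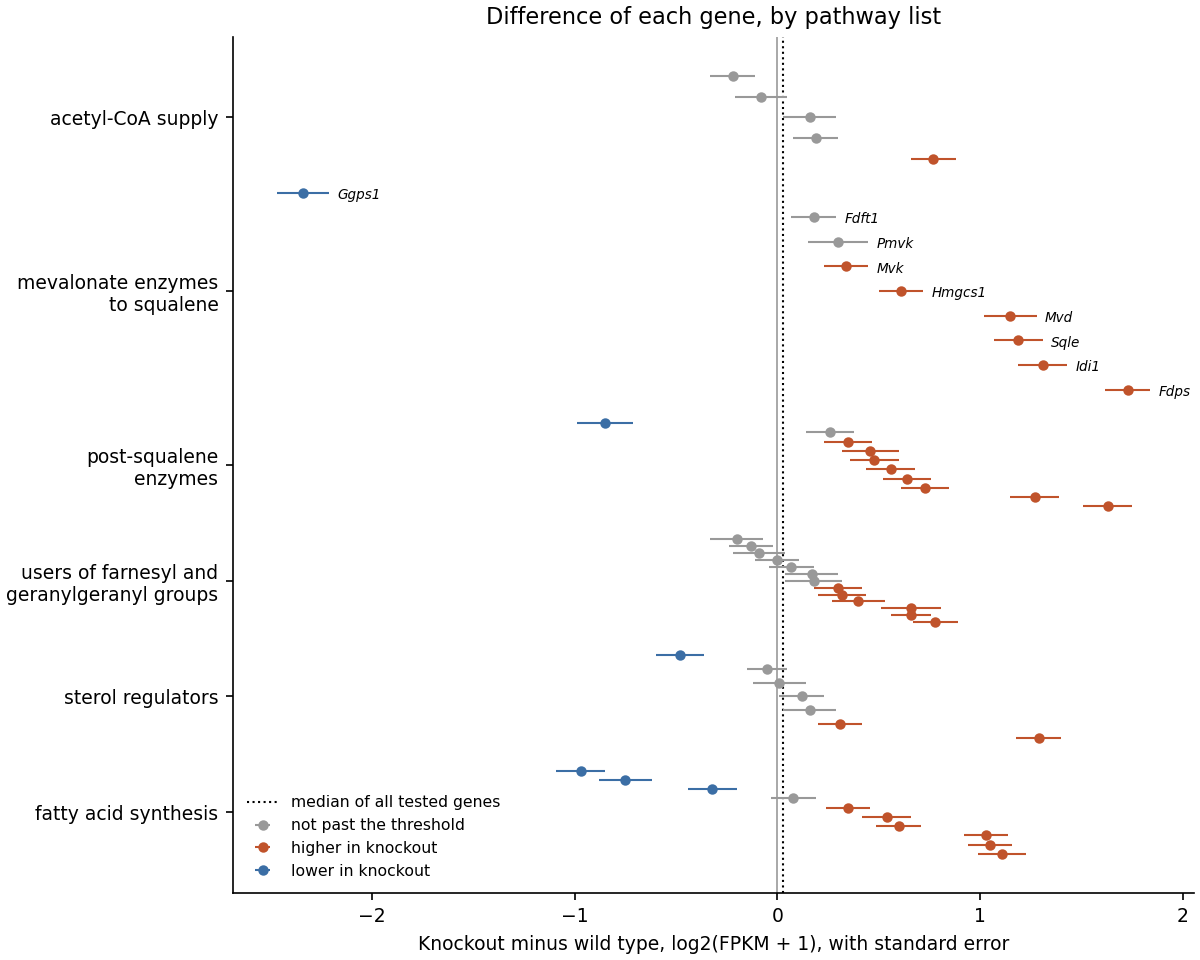
Log2(FPKM + 1) difference of each tested gene with its standard error, grouped by pathway list, orange where called higher in knockout, blue where called lower and grey where not past the threshold; the dotted line is the median of all tested genes. Fdps, Idi1, Sqle and Mvd lie between 1.15 and 1.73, Ggps1 lies at -2.34, and the acetyl-CoA supply genes other than Slc25a1 are grey.

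Markers of cell types differed in level between the genotypes. Whether the cellular makeup of the libraries differed, and its part in the values above, was not tested. In bulk RNA, fewer cells of a type and less RNA per cell cannot be told apart. The marker counts below stand beside 35.2% of all tested genes called higher and 30.6% lower (25.3% and 45.3% with equal totals). Contractile smooth muscle markers were lower in 10 of 10 genes, with summed levels of 15854 and 17768 FPKM across wild-type libraries against 4048 and 5338 FPKM in the knockouts; Acta2, the highest of them in wild type, had a mean of 6857 FPKM there, and Tagln was the highest of them in knockout at 2554 FPKM. Macrophage markers were higher in 12 of 12 genes, summing to 76.4 and 77.1 FPKM across wild-type libraries against 556 and 472 FPKM in the knockouts, led by Lyz2 (means 21.1 and 152 FPKM). Genes of dividing cells were higher in 8 of 8, summing to 13.4 and 8.98 FPKM against 94.7 and 93.3 FPKM, with Ube2c at means of 2.77 and 37.6 FPKM. Of these markers, 8 macrophage and 4 dividing-cell genes had at least 1 FPKM in both wild-type libraries; the others passed the filter on low values wholly or partly through the knockout, so those counts lean on it. Endothelial markers were lower in 6 of 7 tested genes (sums of 264 and 268 against 94.6 and 109 FPKM, with Pecam1 the highest at means of 152.6 and 40.1 FPKM). Emcn, called lower, needed wild type to pass the filter (4.35 and 3.92 FPKM, against 0.383 and 1.36 FPKM in knockout), so that count leans on wild type. Fibroblast markers were lower in 5 and higher in 2 of 7 (sums of 1876 and 1635 against 2208 and 1957 FPKM, with Col1a1 the highest at means of 1188 and 1713 FPKM), and with equal totals in 5 and 1. The Col1a1 rise (log2 difference 0.53, limma adjusted p = 0.0013) lost its call with equal totals (0.27, limma adjusted p = 0.0785), with quantile normalization (0.02, limma adjusted p = 0.894) and on leaving out knockout library 1 (0.42, limma adjusted p = 0.0645). Of fat cell markers, Adipoq, Plin1, Lep, Cidec, Ucp1 and Retn stayed under 1 FPKM in the 4 libraries. Of that list of 8, only Cidea and Fabp4 were tested, and both were lower, though Cidea passed the filter only through wild type (7.82 and 13.2 FPKM, against 0.711 and 0.585 FPKM in knockout). Fabp4, the highest of the list, had means of 163 and 84.1 FPKM. The sums of the list were 152 and 198 FPKM across wild-type libraries against 76.8 and 94.0 FPKM in the knockouts.

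On chromosome 13 lie 3 of the enzyme genes: Idi1 ends 5.16 Mb before Ggps1 begins, and Hmgcs1 lies 105.6 Mb beyond it. Fdps and Pmvk lie 0.35 Mb apart on chromosome 3, the first called and the second not. Around the deleted gene itself, the 5 nearest tested genes on each side were called higher in 5 cases and lower in 2, beside 35.2% and 30.6% of all tested genes, with log2 differences from -0.63 to 1.02. Arid4b, a chromatin protein gene, starts 256 bases from the start of Ggps1 on the other strand, the gene bodies overlapping, and 5.4% of the exon bases of Ggps1 lie in its exons. It fell from 8.99 and 10.2 FPKM to 5.44 and 7.22 FPKM (log2 difference -0.54, SE 0.14, limma adjusted p = 0.00381). Tbce, a tubulin folding cofactor on the other side, rose from a mean of 10.8 to 17.5 FPKM (log2 difference 0.65, limma adjusted p = 0.000221). Beyond it, Gpr137b was called higher (log2 difference 0.93), Lyst lower (-0.63), and Nid1 and B3galnt2 were not called (-0.07 and -0.26), though with equal totals both were called lower (-0.33 and -0.52, limma adjusted p = 0.00844 and 0.00144). The Lyst call ended on leaving out knockout library 1 (-0.41, limma adjusted p = 0.0798) and after removal of length and GC trends (-0.17, limma adjusted p = 0.313). On the far side of Arid4b, Mrpl32, Psma2 and AW209491 were called higher (1.02, 0.97 and 0.49), while Gli3, 1399.7 kb away, was not (0.25), though it passed after removal of length and GC trends (0.62, limma adjusted p = 0.000451). None of the 10 neighbours lay near the -2.34 of Ggps1.

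**Figure D5:**
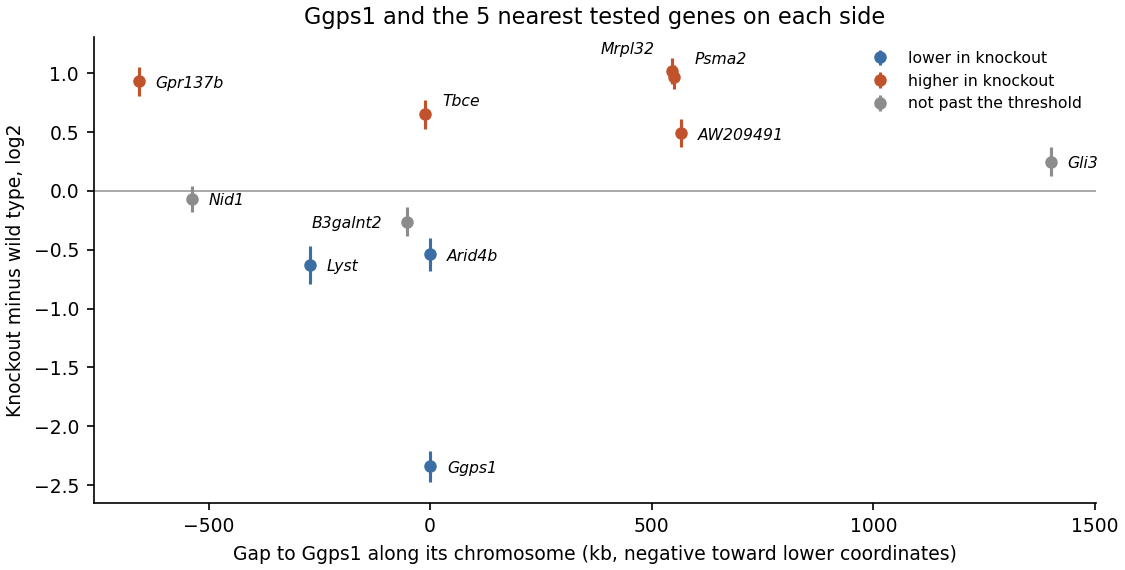
Log2 difference, knockout minus wild type, with standard error, of Ggps1 and the 5 nearest tested genes on each side, against the gap between gene bodies in kb; Arid4b overlaps Ggps1 and is drawn at 0. Ggps1 is at -2.34 and its neighbours lie between -0.63 and 1.02.

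By level and difference together, the tested genes nearest to Ggps1 over the 4 libraries were Klk10, Susd2 and Klhl38, at distances of 0.22, 0.35 and 0.40 in log2(FPKM + 1). Klk10, for instance, was at 8.14 and 10.3 FPKM across wild-type libraries against 1.10 and 1.32 FPKM in the knockouts. Those nearest to Fdps were Sars, Tuba1c and Serpinb6b, at 0.21, 0.28 and 0.29. Sars, a serine tRNA synthetase gene, was at 28.9 and 28.5 FPKM across wild-type libraries against 97.0 and 89.8 FPKM in the knockouts. With 4 libraries in 2 groups this likeness describes these libraries and no more.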

How the data were processed

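The deposited values are FPKM, 1 table per library, per the file headers, which misspell the unit. Listed per the submitters' processing notes, with no role for each, are mm10 and the tools DESeq2 1.16.1, HISAT2 2.0.5 and featureCounts 1.5.0-p3; the program behind the FPKM and any use of strand are not given in the sources used here. Depth is unknown: for genes that stayed under 0.3 FPKM in each library of a genotype, the commonest ratio between them held 0.302% of 1987 and 0.320% of 2188 genes, so no step of whole fragments was found and no interval for counting error is given. Nothing says that libraries came from separate animals, so p-values measure only the spread between libraries, which may be technical.

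The 12314 genes reaching 1 FPKM in 2 or more libraries entered a limma 3.58.1 fit under R 4.3.3 on log2(FPKM + 1). Its prior variance followed mean intensity. A check on simulated data changed few genes, so it does not cover data in which 65.7% of tested genes were called. Log2 differences are knockout minus wild type on the log2(FPKM + 1) scale, which understates the change of low genes. Folds are ratios of mean FPKM. Groups come from the genotype label, and library numbers are names only. The members and lists were chosen with earlier results of these data known. Named were all 9 members, every gene of lists of up to 8, up to 4 called genes of longer lists by smallest p, the highest marker of each cell type list, the 5 nearest tested genes on each side of Ggps1, and the 3 genes most like Ggps1 and Fdps. Mmab and Ctsb were chosen for their position. Nsdhl, Ebp, Hsd17b7, Acacb, Fads2, Me1 and Emcn were named as exceptions after values were seen. Gene models are GENCODE M21 (mm10). The 14 alternatives cover pseudocount, filter, scaling, variance model, leaving out each library, and removal of length and GC trends, the last chosen after seeing the data. Some genes of the pathway or named by this rule are not reported here.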

Additional observations from a re-analysis of the deposited data

How the results depend on the processing

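Across 14 alternatives, the count of the 9 enzyme genes called higher lay between 5 and 6 where the reported count was 6, and the count called lower was 1 in each. Hmgcs1, Mvd, Idi1, Fdps, Ggps1 and Sqle kept direction and call in 14 of 14. Mvk kept its call in 10 (log2 difference 0.09 to 0.36). Pmvk passed in 1, without wild-type library 1, and Fdft1 passed in 1, with length and GC trends removed. With equal column totals the Fdft1 difference reversed to -0.07; the cause was not tested. Over all genes, calls ranged from 3116 to 4609 higher (reported 4332) and from 2795 to 5580 lower (reported 3764); equal totals gave 3116 higher and 5580 lower. No paired analysis was possible because the labels give the genotypes no shared replicate numbers. Where a wild-type or knockout library was left out, the lone library was assumed to vary like the other genotype. With depth unknown, precision rests on 2 libraries per genotype.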
